A study of Rattus norvegicus with 18 samples.

Results

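The miR-34 and miR-449 family was followed in rat heart across 18 small RNA libraries. Its members were taken by name, as every listed row for miR-34a, miR-34b, miR-34c, miR-449a or miR-449c with an arm. This gave 8 of 599 listed miRNAs: 2 from the miR-34a locus, 4 from the miR-34b and miR-34c locus and 2 from the miR-449 locus. The libraries came from Wistar Kyoto rats (WKY, labelled normal, 6 libraries), from spontaneously hypertensive rats (SHR, labelled hypertension, 6 libraries) and from SHR given QDG (6 libraries). WKY is the normotensive strain that usually serves as the reference for SHR. The design text says that SHR received NS or QDG and does not state clearly whether WKY rats also received NS. Neither abbreviation is spelled out, and the sources used here do not give the age of the rats. Each group holds a single strain and a single condition, so strain, blood pressure and handling cannot be told apart when SHR or QDG is set against WKY. Nothing in the labels ties each library to a rat of its own, and the p-values therefore measure only the spread between these libraries, which may in part be technical.

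Reads over miRNAs lay between 6420666 and 10169581 per library, and 1 read was worth 0.135 to 0.225 RPM (the deposited normalized read count, a read number divided by a factor for each library and set to a scale of 1000000). The listed values of a library summed to 1338745 to 1508772 RPM, so these read totals exceeded the factor in every library. Whether some reads were counted for more than 1 miRNA was not tested. The 6 markers of heart muscle fixed for the check of the tissue were present in every library, with a summed level of 142280 to 209830 RPM. SHR replicate 5, QDG replicate 1 and 5 of 6 WKY libraries held over 3 RPM of miRNAs typical of testis germ cells, with the most in SHR replicate 5. Those values, and the results without these 7 libraries, stand with the marker sums.

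The members of this family are known for a shared seed, the stretch near the 5′ end with which a microRNA recognises its targets, and for repressing messages of the cell cycle and of cell survival. miR-34a is a transcriptional target of p53 and is made in many tissues. In the heart it is known to rise with age and injury. miR-34b and miR-34c come from a shared transcript and are known for high levels in testis, lung and brain, and the miR-449 members are typical of epithelia with motile cilia.

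All 8 members were matched to a mature sequence in RefSeq (GRCr8). The 5p arms are printed first because the seed they share is what makes the members a family. Capitals mark the seed, bases 2 to 8 from the 5′ end.
miR-34a-5p: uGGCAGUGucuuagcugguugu
miR-34b-5p: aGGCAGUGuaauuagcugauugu
miR-34c-5p: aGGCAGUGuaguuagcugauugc
miR-449a-5p: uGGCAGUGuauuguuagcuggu
miR-449c-5p: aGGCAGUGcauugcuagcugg
The 3p arms do not carry that seed.
miR-34b-3p: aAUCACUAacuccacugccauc
miR-34c-3p: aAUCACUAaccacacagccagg
miR-34a-3p: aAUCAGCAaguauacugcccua
The 5 mature miRNAs with the seed GGCAGUG were 0.722% of the 693 mature sequences in that table, and each of them was a member listed here. miR-34b-3p and miR-34c-3p share a second seed, AUCACUA, which no other entry in the table carries. Counted from the 5′ end, miR-34c-5p differs from miR-34b-5p by A11G and U23C, the base of miR-34b-5p being written first. Between miR-34a-5p and miR-34b-5p the edit distance was 4, and between miR-34a-5p and miR-449a-5p it was 6. The handling of reads matching more than 1 miRNA is not stated in the labels or headers, so the split of reads between miR-34b-5p and miR-34c-5p is uncertain.

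The hairpins are shown because they separate the loci and the arms that the values below compare. Capitals mark the arms with values in the files.
Mir34a: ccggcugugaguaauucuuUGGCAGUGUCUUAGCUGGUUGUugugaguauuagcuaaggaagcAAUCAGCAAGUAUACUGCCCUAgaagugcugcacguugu
Mir34b: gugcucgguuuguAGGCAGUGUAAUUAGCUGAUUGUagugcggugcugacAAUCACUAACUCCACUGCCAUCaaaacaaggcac
Mir34c: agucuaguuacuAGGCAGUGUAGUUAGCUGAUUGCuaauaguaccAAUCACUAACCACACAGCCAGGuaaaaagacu
In GRCr8, Mir34a lies at chr5:165815952-165816053 on the plus strand, inside the long noncoding RNA gene LOC103692514. Mir34c (chr8:60306091-60306167) and Mir34b (chr8:60306609-60306692) lie 441 bases apart on the minus strand. Both overlap the annotated span of Hoatz, a gene of motile cilia, and Btg4 is the next coding gene. Mir449c and Mir449a lie on chromosome 2, 1436 bases apart, within the noncoding gene LOC134485839. The nearest coding genes on one side of them are Mcidas and Ccno, which are known for the making of motile cilia.

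In WKY hearts the 5p members of the 2 miR-34 loci had about equal RPM, which need not mean equal amounts of RNA. Most WKY libraries also held the testis germ cell miRNAs named above. miR-34a-5p ranged from 94.6 to 137 RPM (median 115.5) and miR-34c-5p from 89.9 to 128 RPM (median 101). These 2 neighbours in the order of levels overlapped, and in WKY replicate 1 miR-34c-5p was the higher of the pair. miR-34b-5p followed with 15.2 to 31.8 RPM, then miR-34b-3p with 3.14 to 5.34 RPM and miR-449a-5p with 1.08 to 3.52 RPM, which overlapped each other. miR-34c-3p had 1.12 to 2.29 RPM and overlapped miR-449a-5p. The members tested differ little in length, 22 or 23 bases, and their levels are given as RPM per mature miRNA. The remaining members were barely detected. miR-34a-3p had 0 to 3 reads in each library, with 4 reads summed over WKY (95% exact Poisson interval 1.09 to 10.2), 9 over SHR (4.12 to 17.1) and 6 over QDG (2.20 to 13.1), and was at 0 in 8 of 18 libraries. miR-449c-5p had 0 to 2 reads, with 1, 2 and 5 reads summed (0.0253 to 5.57, 0.242 to 7.23 and 1.62 to 11.7), and was at 0 in 13 libraries, where a count of 0 allows up to 3 reads, or 0.405 to 0.674 RPM. These intervals cover counting error only. Neither of them reached 1 RPM in any library, and neither was tested.

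**Figure D1:**
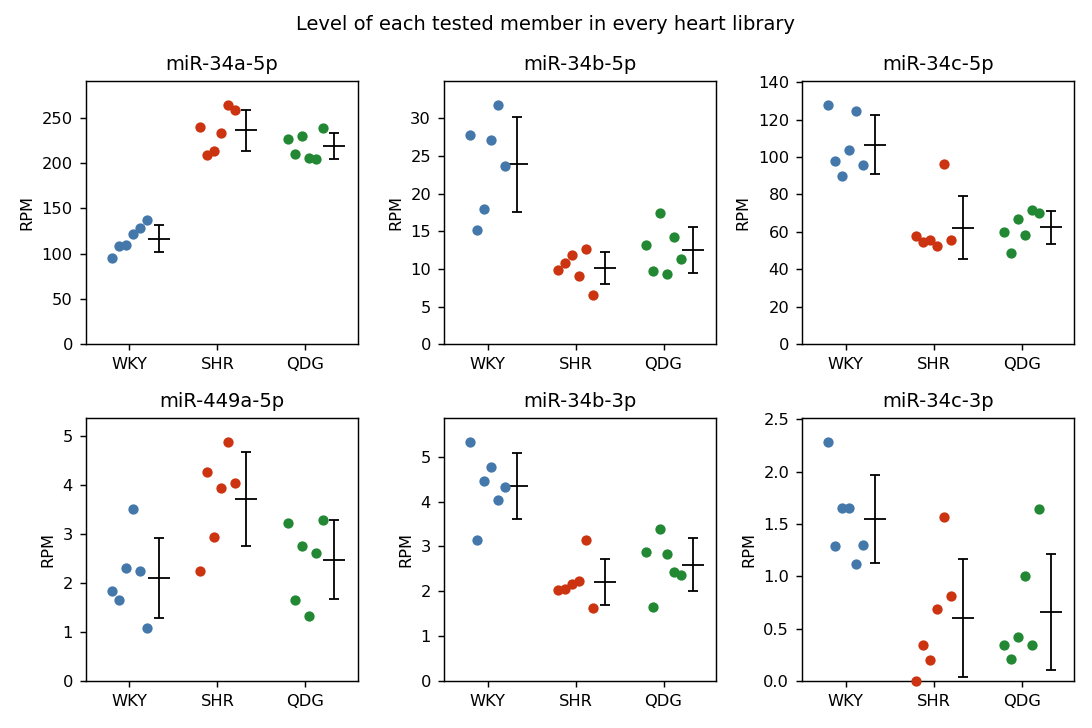
Level of the 6 tested members in RPM (vertical axes, each from 0) in WKY, SHR and QDG hearts, with 1 point per library and a bar for the mean ± SD (n = 6). miR-34a-5p lies above the WKY range in every SHR and QDG library, and the 5p arms of miR-34b and miR-34c lie lower there, apart from SHR replicate 5 at 96.4 RPM of miR-34c-5p and QDG replicate 3 at 17.4 RPM of miR-34b-5p, both within the WKY range.

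SHR against WKY asks how the family differs in the hypertensive strain. The miR-34a locus, of which only miR-34a-5p was tested, was higher and the miR-34b and miR-34c locus lower. miR-34a-5p had 208 to 264 RPM in SHR (median 236) against 94.6 to 137 RPM in WKY. Every SHR library lay above every WKY library. Its log2 difference was 1.02 with a 95% interval of 0.82 to 1.22 (limma adjusted p = 1.09e-08), the 6th largest rise among 410 tested miRNAs.

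miR-34b-5p, the rarer guide of the other locus, had 6.48 to 12.6 RPM in SHR (median 10.3) against 15.2 to 31.8 RPM in WKY (median 25.4). These groups did not overlap either, and the log2 difference of -1.15 (-1.51 to -0.79, limma adjusted p = 2.3e-05) was the 2nd largest fall. The largest fall was that of miR-741-3p, a marker of testis germ cells (-1.30, limma adjusted p = 0.265). miR-34c-5p, the abundant guide of that locus, had 52.6 to 96.4 RPM in SHR (median 55.9) against 89.9 to 128 RPM in WKY. Of the SHR libraries, 5 lay below the WKY range and SHR replicate 5 lay within it. The log2 difference was -0.79 (-1.07 to -0.51, limma adjusted p = 8.28e-05), and -0.92 without SHR replicate 5 (limma adjusted p = 1.07e-06). SHR replicate 5 held the most testis germ cell miRNAs, but most WKY libraries held them too. With all 7 libraries over 3 RPM of them left out, the difference was -0.69, with 1 WKY library remaining.

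The passenger arms of that locus, which are the strands usually discarded, were also lower. miR-34b-3p had 1.62 to 3.14 RPM in SHR (median 2.11, 9 to 18 reads) against 3.14 to 5.34 RPM in WKY (median 4.39, 17 to 35 reads). The groups met at 3.14 RPM, and the log2 difference was -0.74 (-1.06 to -0.42, limma adjusted p = 0.00066). miR-34c-3p had 0 to 1.57 RPM in SHR (0 to 9 reads) against 1.12 to 2.29 RPM in WKY (5 to 15 reads), with a log2 difference of -0.73 (-1.19 to -0.27, limma adjusted p = 0.0192). It reached 1 RPM in 6 WKY libraries but in only 1 SHR and 2 QDG libraries, so it entered the test through the group where it is high. Its call was lost without SHR replicate 1 (limma adjusted p = 0.0578) and with edgeR on the recovered reads (log2 -1.26, adjusted p = 0.0606) or DESeq2 (log2 -1.28, adjusted p = 0.0582).

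miR-449a-5p, from the cilia-linked locus, had 2.25 to 4.89 RPM in SHR (median 3.997, 10 to 30 reads) against 1.08 to 3.52 RPM in WKY (median 2.03, 5 to 17 reads). The groups overlapped, although 6 of 6 SHR libraries lay above the WKY mean. The log2 difference was 0.62 (0.22 to 1.02, limma adjusted p = 0.0204), and the call was lost without WKY replicate 6 (0.51, limma adjusted p = 0.0658) or without SHR replicate 5 (0.55, limma adjusted p = 0.0515).

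Leaving aside miR-34c-3p, which entered the test through WKY, 5 of 5 tested members were called, 2 higher and 3 lower (with it, 6 of 6), where 23.2% of all 410 tested miRNAs were called in this comparison, 8.05% higher and 15.1% lower. Of the 5, 2 members had groups that did not overlap, against 10.2% of all tested miRNAs. The median log2 difference of these 5 members was -0.74, beside -0.067 over all tested miRNAs. Members of a locus share a transcript, so the lower ones are not separate observations.

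Ratios taken within each library do not depend on its scaling, but a ratio alone does not show which of its 2 members differs. The ratio of miR-34a-5p to miR-34c-5p was 0.740 to 1.43 in WKY (median 1.15), 2.74 to 4.61 in SHR (median 3.99) and 2.84 to 4.31 in QDG (median 3.49). That of miR-34a-5p to miR-34b-5p was 3.41 to 7.18 in WKY, 18.1 to 39.8 in SHR and 13.2 to 21.96 in QDG. For both ratios all 12 SHR and QDG libraries lay above the 6 WKY libraries. For miR-34a-5p to miR-34b-5p in SHR this follows from the 2 members, since neither overlapped WKY. The same holds for miR-34a-5p to miR-34c-5p in QDG. Within the lower locus, the ratio of miR-34c-5p to miR-34b-5p overlapped between all 3 groups, at 3.82 to 6.45 in WKY, 4.73 to 8.63 in SHR and 3.84 to 6.21 in QDG. The ratio of miR-34b-5p to its own 3p arm was 4.04 to 7.89 in WKY, 4 to 5.45 in SHR and 3.29 to 5.88 in QDG, and it overlapped too. Arm use differed more between the hairpins than between the groups: summed over WKY libraries, there were 5.39 reads of miR-34b-5p and 66.8 reads of miR-34c-5p for each read of the 3p arm, and 3664 reads of miR-34a-5p stood beside 4 of miR-34a-3p. In SHR the first 2 of these ratios were 4.53 and 96.95, the latter resting on 22 reads of miR-34c-3p.

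**Figure D2:**
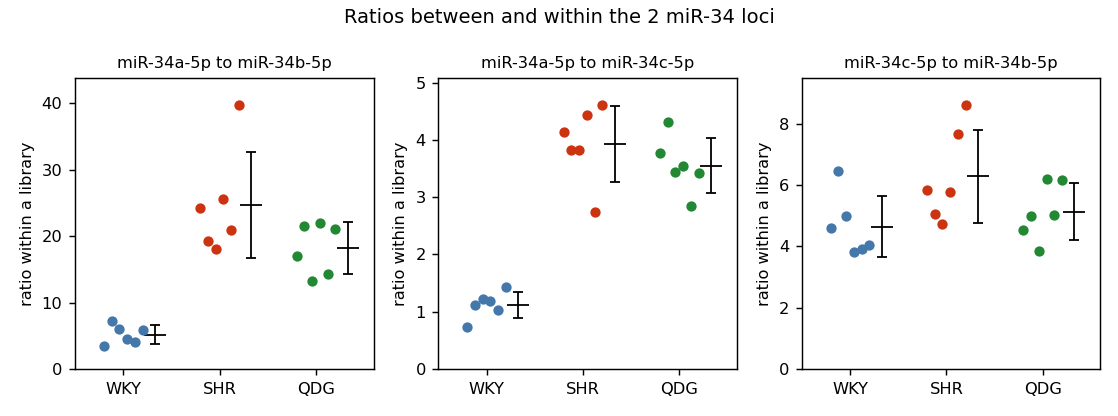
Ratio of 5p members within each library (vertical axes, from 0), for miR-34a-5p to miR-34b-5p, miR-34a-5p to miR-34c-5p and miR-34c-5p to miR-34b-5p, with 1 point per library and the mean ± SD (n = 6) in WKY, SHR and QDG. The first 2 ratios do not overlap between WKY and the other groups, with WKY at 0.740 to 1.43 and SHR at 2.74 to 4.61 for miR-34a-5p to miR-34c-5p, while the third overlaps in all groups.

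Since these 5p members carry the same seed, their sum describes the level of that seed in RPM. Any read counted for more than 1 member would enter the sum more than once. The sum was 219 to 287 RPM in WKY (median 254), 278 to 378 RPM in SHR (median 304) and 270 to 324 RPM in QDG (median 297.5). The mean was 1.25 times as high in SHR as in WKY, compared with 2.02 times for miR-34a-5p alone, and 2 of 6 SHR libraries lay within the WKY range. The make-up of the sum differed more than its size. WKY hearts drew 46.9 ± 5.38% of it from miR-34a-5p, SHR hearts 75.8 ± 3.42% and QDG hearts 73.9 ± 2.66% (mean ± SD over 6 libraries). The share of miR-34c-5p was 42.7 ± 4.58%, 19.7 ± 3.001% and 21.0 ± 2.16%, and that of miR-34b-5p 9.48 ± 1.74%, 3.27 ± 0.751% and 4.21 ± 0.851%, in the same order of groups. miR-449a-5p made up 0.421 to 1.54% in all libraries. These shares are descriptions and were not tested.

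**Figure D3:**
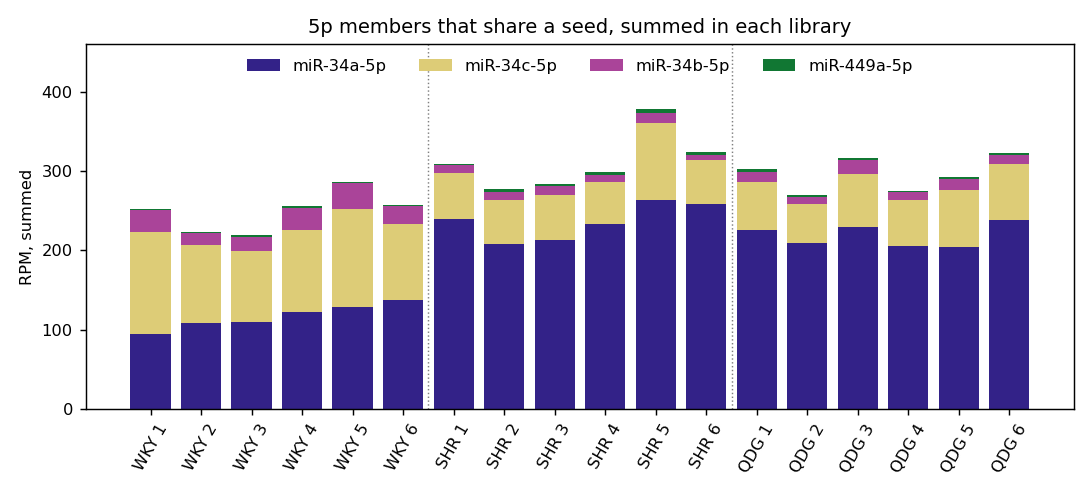
Summed level in RPM (vertical axis, from 0) of the 5p members with the seed GGCAGUG in each of the 18 libraries, stacked by member. Totals lie between 219 and 378 RPM, and miR-34a-5p forms 37.5 to 53.2% of them in WKY libraries and 69.7 to 79.5% in SHR and QDG libraries; miR-449c-5p, at 0 to 2 reads, is not drawn.

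QDG against WKY sets the treated SHR beside the same WKY libraries, so it shares its controls with the comparison above. miR-34a-5p had 204 to 239 RPM in QDG (median 218) and a log2 difference of 0.91 (0.71 to 1.11, limma adjusted p = 4.65e-08), with no overlap. miR-34c-5p had 48.5 to 71.8 RPM (median 63.4), also with no overlap, and a log2 difference of -0.76 (-1.03 to -0.48, limma adjusted p = 0.000147). miR-34b-5p had 9.35 to 17.4 RPM (median 12.3) and -0.87 (-1.23 to -0.50, limma adjusted p = 0.000682), with QDG replicate 3 inside the WKY range.

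Of the arms, miR-34b-3p had 1.65 to 3.39 RPM and a log2 difference of -0.58 (-0.89 to -0.26, limma adjusted p = 0.00843). miR-34c-3p had 0.206 to 1.64 RPM and -0.66 (-1.12 to -0.20, limma adjusted p = 0.0414), a call that was lost without WKY replicate 1, 3, 4 or 6 or without QDG replicate 1, 2, 3 or 5 (limma adjusted p = 0.0505 to 0.0887), under TMM scaling (0.0549) and with edgeR and DESeq2 (log2 -1.20 and -1.21, adjusted p = 0.0833 and 0.0802). miR-449a-5p had 1.34 to 3.29 RPM in QDG and a log2 difference of 0.17 (-0.23 to 0.56, limma adjusted p = 0.612). Leaving aside miR-34c-3p for the same reason, 4 of 5 tested members were called, 1 higher and 3 lower (with it, 5 of 6), beside 17.8% of all tested miRNAs (7.32% higher and 10.5% lower), and 2 did not overlap, beside 8.05%.

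QDG against SHR asks whether treatment moved the family within the SHR strain. No member was called, and neither was any of the 410 miRNAs (0% in limma, 0 with edgeR and 0 with DESeq2), while 15 of them (3.66%) had an unadjusted limma p under 0.05. The log2 differences were -0.11 (-0.31 to 0.10) for miR-34a-5p, 0.28 (-0.08 to 0.65) for miR-34b-5p and 0.03 (-0.25 to 0.31) for miR-34c-5p. For miR-34a-5p and miR-34c-5p both ends of the interval are smaller in size than the difference from WKY. miR-34b-3p had 0.16 (-0.16 to 0.48) and miR-34c-3p 0.06 (-0.40 to 0.52). miR-449a-5p had -0.45 (-0.85 to -0.05), an unadjusted limma p of 0.0278 and an adjusted p of 0.983, as for each member; 6 of 6 QDG libraries lay below the SHR mean of 3.73 RPM. It was the 4th largest fall among the 410. The groups overlapped, at 1.34 to 3.29 RPM in QDG (8 to 19 reads) and 2.25 to 4.89 RPM in SHR (10 to 30 reads).

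**Figure D4:**
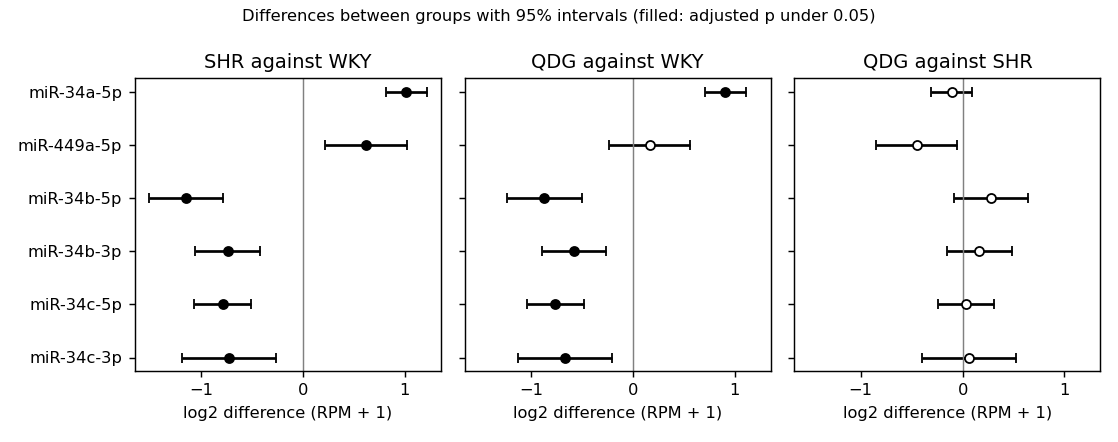
Log2 differences of RPM + 1 (horizontal axes) for the 6 tested members in SHR against WKY, QDG against WKY and QDG against SHR, with 95% limma intervals; filled points passed an adjusted p of 0.05. miR-34a-5p lies at 1.02 and 0.91 and miR-34b-5p at -1.15 and -0.87 against WKY, and no point is filled in QDG against SHR.

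Markers of other cell types were summed in each library, since miR-34b, miR-34c and miR-449 are abundant in cells other than heart muscle. Of 7 germ cell markers of testis, 3 were abundant enough to be tested and 0 were called, where 23.2% of all tested miRNAs were called in SHR against WKY. Their log2 differences were large but uncertain: -1.30 (standard error 0.76) for miR-741-3p, -0.66 (0.48) for miR-743b-3p and -0.53 (0.54) for miR-871-3p. Each was at 0 in 3 to 7 libraries. The median of the 3 was -0.656 beside -0.067 over all tested miRNAs, and -0.869 beside -0.062 in QDG against WKY. The sum of the 7 went with the lower locus across libraries, though not in each of them. It was 0.495 to 19.2 RPM in WKY (median 11.9), 0.342 to 0.982 RPM in SHR apart from SHR replicate 5 with 54.3 RPM, and 0.182 to 1.44 RPM in QDG apart from QDG replicate 1 with 16.1 RPM. SHR replicate 5, the library with the most of these markers, was also the SHR library with the highest miR-34c-5p. miR-880-3p was at 0 in every QDG library, and miR-741-3p was the most abundant marker. Across the 18 libraries the log2 sum had r = 0.704 with miR-34c-5p and r = 0.568 with miR-34b-5p, and r = 0.640 and 0.395 after centring on the group means. These are descriptions over libraries that share their scaling.

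WKY replicate 3, with 0.495 RPM of these markers, had 89.9 RPM of miR-34c-5p and 17.98 RPM of miR-34b-5p, above the 5 SHR libraries with under 1 RPM of the markers (52.6 to 57.8 RPM and 6.48 to 11.8 RPM). The QDG libraries apart from QDG replicate 1 had 48.5 to 71.8 RPM and 9.35 to 17.4 RPM. QDG replicate 3, with 0.636 RPM of the markers, was thus close to WKY replicate 3 in miR-34b-5p. With the 7 libraries over 3 RPM of markers left out, which leaves 1 WKY library assumed to vary like the others, the SHR against WKY differences were 1.07 for miR-34a-5p (limma adjusted p = 0.000757), -0.69 for miR-34c-5p (0.0557) and -0.86 for miR-34b-5p (0.170). In QDG against WKY they were 0.99, -0.52 and -0.54 in that order of members (limma adjusted p = 0.00196, 0.193 and 0.450). With the log2 marker sum as a covariate over all libraries they were 1.05, -0.63 and -1.02 (limma adjusted p = 7.44e-08, 0.000778 and 0.00029), and miR-34c-3p lost its call (0.0614). In QDG against WKY the covariate left miR-34a-5p, miR-34b-5p and miR-34c-5p called at 0.95, -0.71 and -0.57 (limma adjusted p = 4.83e-07, 0.00952 and 0.00282), and miR-34b-3p and miR-34c-3p lost their calls (0.0604 and 0.136). Both settings were chosen after the data were seen.

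**Figure D5:**
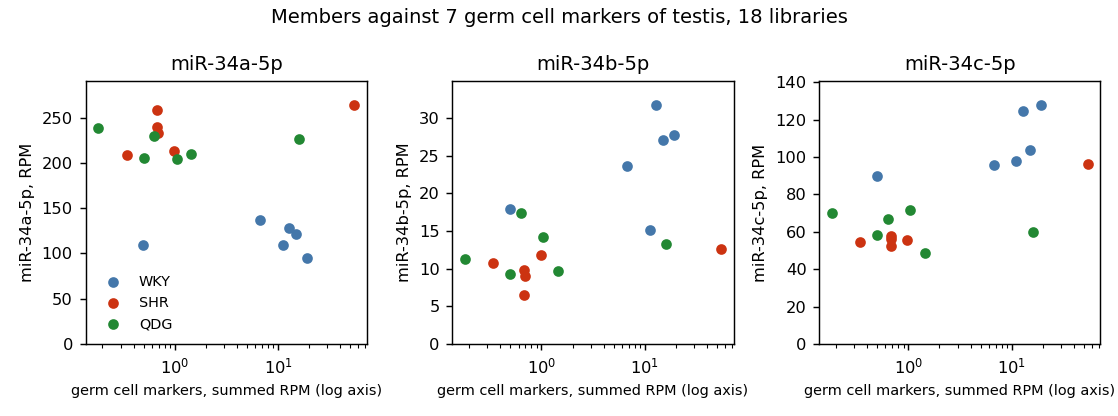
Level of miR-34a-5p, miR-34b-5p and miR-34c-5p in RPM (vertical axes, from 0) against the summed level of 7 germ cell markers of testis in RPM (horizontal log axes), with 1 point per library in WKY, SHR and QDG. SHR replicate 5 lies far to the right at 54.3 RPM of markers, and WKY replicate 3 lies to the left at 0.495 RPM with 89.9 RPM of miR-34c-5p.

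Epithelial markers were mixed. Of 11, all tested, 4 rose in SHR against WKY and 0 fell, where 8.05% of all 410 tested miRNAs rose and 15.1% fell. The median of the 11 was 0.062, beside -0.067 over all tested miRNAs. The 4 were miR-182 (log2 1.98, limma adjusted p = 6.86e-09), miR-96-5p (1.58, 6.88e-08), miR-183-5p (0.98, 8.28e-05) and miR-200c-3p (0.36, 0.0238), of which the first 3 come from a single cluster. Below 0, without passing, were miR-205 (-0.40), miR-200a-3p (-0.35), miR-200b-3p (-0.32), miR-429 (-0.21) and miR-375-3p (-0.16), with limma adjusted p of 0.241 to 0.619. The summed level of the 11 was 117 to 152 RPM in WKY, 153 to 206 RPM in SHR and 156 to 201 RPM in QDG. Its mean was 136 RPM in WKY and 177 RPM in SHR, and miR-182 alone averaged 6.74 and 29.7 RPM. Most of the higher mean in SHR thus lay in the cluster of miR-182, miR-96-5p and miR-183-5p. miR-205 was at 0 in 1 library. The part of epithelial cells in the differences of miR-34a-5p and miR-449a-5p was not tested. In bulk tissue, more or fewer cells of a type and more or less RNA per cell cannot be told apart. Neuronal markers (0 of 7 called) summed to 1112 to 1374 RPM in WKY and 1081 to 1458 RPM in SHR. Of 5 leukocyte markers 1 rose, miR-155-5p (0.48, limma adjusted p = 0.0128), and their sums were 1094 to 1563 RPM and 1223 to 1407 RPM. Of 6 heart muscle markers 2 rose, miR-1-3p (0.74, limma adjusted p = 3.34e-08) and miR-208b-3p (0.89, limma adjusted p = 0.000132), with sums of 142280 to 172910 RPM in WKY and 178120 to 204270 RPM in SHR.

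Because p53 is the best known inducer of miR-34a, other miRNAs known to respond to p53 were set beside it. Of 14 listed and tested, 1 rose in SHR against WKY and 0 fell, beside 8.05% and 15.1% of all 410 tested miRNAs. The 1 was miR-200c-3p, which is also among the epithelial markers. The median of the 14 was -0.006 beside -0.067 over all tested miRNAs. In QDG against WKY 0 of 14 were called, beside 17.8% of all tested miRNAs (median 0.045 beside -0.062). In QDG against SHR 0 of 14 were called, beside 0% (median -0.015 beside 0.016). The most abundant of them in QDG against WKY had log2 differences of -0.05 for miR-143-3p, 0.22 for miR-22-3p, -0.10 for miR-29a-3p and -0.09 for miR-23a-3p, with limma adjusted p of 0.126 to 0.803. The log2 of their summed level had r = -0.081 with miR-34a-5p over the 18 libraries and r = 0.717 after centring on the group means, a description over libraries that share their scaling. That sum was mostly miR-143-3p, with a mean of 59620 RPM in WKY beside 104300 RPM for the whole list. With miR-34a-5p, centred r was 0.619 for the sum of leukocyte markers and 0.441 for epithelial ones. It was 0.235 for germ cell, 0.145 for heart muscle and -0.231 for neuronal markers. miR-215, also on that list, was not analysed here.

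Patterns most like those of the members were ranked by Pearson's r of log2(RPM + 1) over the 18 libraries, as a description in which the strain difference weighs heavily. For miR-34a-5p the closest were miR-293-5p (r = 0.936), miR-96-5p (0.923), miR-190b-5p (0.908), miR-182 (0.901) and miR-708-5p (0.888). Once values were centred on their group means these fell to between 0.096 and 0.401. For miR-34b-5p they were let-7a-5p (r = 0.851), let-7f-5p (0.830), miR-30d-3p (0.814), miR-494-3p (0.807) and miR-370-3p (0.807), with centred r of 0.244 to 0.533. For miR-34c-5p they were miR-30a-5p (r = 0.864), miR-494-3p (0.835), let-7a-5p (0.830), let-7e-5p (0.815) and miR-10b-5p (0.807), with centred r of 0.734, 0.438, 0.121, 0.260 and 0.714 in that order. miR-10b-5p, a miRNA of the Hox clusters, averaged 246 ± 92.3 RPM over WKY libraries and 136 ± 88.5 RPM over SHR libraries (SD, n = 6 each; limma adjusted p = 0.0823).

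Within the family, centred values of most pairs from the lower locus went together. The centred r was 0.591 for miR-34b-5p with miR-34c-5p, 0.659 for miR-34b-5p with miR-34b-3p and 0.522 for miR-34c-5p with miR-34c-3p, but -0.089 for miR-34b-5p with miR-34c-3p. It was 0.109 for miR-34a-5p with miR-34b-5p, 0.218 for miR-34a-5p with miR-34c-5p and 0.192 for miR-34a-5p with miR-449a-5p. These are descriptions over 18 libraries that share the authors' scaling.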

How the data were processed

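Small RNA of rat heart was sequenced in 18 libraries, 6 per group, grouped by their titles. Per the labels' protocols, libraries were made from total RNA with a small RNA kit. FastQC, TopHat2 and limma are named in the submitters' processing notes, without versions or roles, and no source used here states a genome build or a miRNA annotation. The deposited values are, per the file headers, the authors' normalized read counts, treated as a signal per mature miRNA. In each library they were whole multiples of a single step (10782 of 10782 values within 0.01 of a whole read), so reads were recovered, and the values were read as RPM. Libraries of a group differed by more than sampling noise (chi-square per degree of freedom of at least 42.7).

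The 410 of 599 miRNAs that reached 1 RPM in 6 or more libraries were taken as log2(RPM + 1) and fitted in limma (3.58.1, R 4.3.3, trend and robust) over 18 libraries without covariates, with Benjamini-Hochberg adjustment over all 410 and a threshold of 0.05. Fold changes of scarce miRNAs are understated by the pseudocount. The fit was also run on simulated data, and the outcome of that run is not given here. Alternatives were other pseudocounts, filters and scalings, edgeR (4.0.16), DESeq2 (1.42.0) and limma-voom on recovered reads, a replicate block, the 2 groups alone and each library left out. All family rows were named. For miR-34a-5p, miR-34b-5p and miR-34c-5p, the 5 other miRNAs of highest r were named, and for each fixed list up to 4 members, those passing with the largest change or else the most abundant. Members and lists were chosen with earlier results of these data known. Sequences are from RefSeq (GRCr8).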

Additional observations from a re-analysis of the deposited data

Results flagged for a closer look

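Values were examined for a library far from the other 5 of its group in 60 sets of 6, of which chance alone picks about 1 in 20. SHR replicate 5 had 96.4 RPM of miR-34c-5p, where the next SHR library had 57.8 RPM. The same library had the highest sum of miR-34b-5p and miR-34c-5p in SHR, 109 RPM against 67.7 RPM in the next, and the highest share of miR-34c-5p in the 5p sum, 25.5% against 19.6%. It was also the SHR library with 54.3 RPM of germ cell markers, whose part in its miR-34c-5p was not tested. SHR replicate 6 had the highest ratio of miR-34a-5p to miR-34b-5p, 39.8 against 25.7 in the next SHR library, with 48 reads of miR-34b-5p. miR-449c-5p had 0.224 RPM (1 read) in WKY replicate 5 and 0.349 RPM (2 reads) in SHR replicate 5 and was at 0 in the other libraries of those groups, which makes its share of the 5p sum 0.0780% and 0.0924% there.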

How the results depend on the processing

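The number of members called was 6 in SHR against WKY, 0 in QDG against SHR and 5 in QDG against WKY. These counts include miR-34c-3p, which entered the test through WKY, as do those below wherever it was tested. Without miR-34c-3p they were 5, 0 and 4. The number of members called fell to 3 and 3 in the comparisons with WKY under a filter at 10 RPM, which leaves 3 members to test. With the 7 libraries rich in germ cell markers left out it was 1 and 1, with 1 WKY library remaining, and with the marker sum as a covariate 5 and 3. Leaving out each library in turn gave 5 to 6, 0 to 0 and 4 to 5. The other scalings gave 6, 0 and 4 to 5, and edgeR and DESeq2 5, 0 and 4. The replicate block gave 6, 0 and 5 and changed no call. Replicate numbers were not treated as pairs, since same-numbered libraries had correlations of deviations from -0.174 to 0.232 in SHR against WKY and 0.004 to 0.202 in QDG against WKY. Over all tested miRNAs, the called ones were 33 higher and 62 lower in SHR against WKY and 52 and 43 under TMM scaling, and 30 and 43 against 50 and 32 in QDG against WKY, while TMM shifted the median of all log2 differences by 0.0937 and 0.0772. No called member changed its direction in any setting. The recovered reads limit the scarce members: miR-34c-3p rests on 0 to 15 reads and miR-449a-5p on 5 to 30 reads a library.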
